A study of Homo sapiens with 6 samples.

Results

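The genes described here are 50 members of the bone morphogenetic protein (BMP) and transforming growth factor beta (TGF-beta) signaling pathways. They were read by symbol from a deposited table of 54308 genes, in which all 50 were listed. Of these, 49 had values in all 6 libraries and were compared between groups. The remaining gene, the ligand BMP5, had a value only in VC replicate 2 (-9.16) and KO replicate 1 (-9.26) and was not tested.

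The data came from 143B, an established human osteosarcoma cell line. Vector control cells (VC, 3 libraries) carried the vector plasmid and served as the control genotype. Knockout cells (KO, 3 libraries) received a CNTNAP4 KO plasmid, which targeted a gene for a neuronal cell adhesion protein of the contactin-associated family, and both groups were labelled as transfected for 48 h. The study's methods instead give a longer incubation with plasmid, followed by sorting. By these methods the cells were clonal, grown from sorted single-cell colonies, and the KO group had 2 such colonies. Which colony each KO library came from is not given in the sources used here, so a difference between the groups and a difference between clones cannot be told apart. The libraries are described as independent RNA samples, and p-values then measure only the spread between these samples, which may be technical.

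BMPs, TGF-betas and activins are secreted ligands that bring together type I and type II serine/threonine kinase receptors. The activated type I receptor phosphorylates receptor SMADs, mainly SMAD1, SMAD5 and SMAD9 downstream of BMPs and SMAD2 and SMAD3 downstream of TGF-beta and activin, which enter the nucleus with the common SMAD4. Antagonists such as noggin and follistatin hold ligands outside the cell, latent TGF-beta binding proteins store TGF-beta in the matrix, and SMAD6, SMAD7, SKI and SMURF proteins act as brakes inside the cell. In bone, BMPs drive osteoblast differentiation and matrix-stored TGF-beta couples resorption to formation, and the ID genes are classical direct targets of BMP signaling.

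Promoter windows, 250 bases before to 50 bases after the RefSeq start in build GRCh38.p14, were available for 44 of the 50 members. BMP2, BMP3, BMP7, NOG, ACVRL1 and SKI had no entry. The windows below belong to the 3 members with an entry whose signal fell most (TGFB2, INHBB and SMAD6) and the 3 whose signal rose most (BMP6, LTBP1 and INHBA) among those past the test threshold. They are shown so that the start regions of members that moved in opposite directions can be read side by side. Capitals mark GTCTAGAC (a palindromic SMAD-binding sequence), CAGACA (a SMAD element), GGCGCC (a GC-rich SMAD element), TGACTCA (an AP-1 site) or TGACGTCA (a cyclic AMP response element), each searched on both strands. All are given 5′ to 3′ on the strand of the gene.
TGFB2: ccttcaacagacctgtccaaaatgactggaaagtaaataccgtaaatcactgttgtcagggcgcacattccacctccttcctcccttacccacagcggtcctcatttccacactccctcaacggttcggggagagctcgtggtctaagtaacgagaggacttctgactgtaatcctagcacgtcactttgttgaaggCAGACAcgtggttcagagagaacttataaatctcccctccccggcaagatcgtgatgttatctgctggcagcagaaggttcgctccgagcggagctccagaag
INHBB: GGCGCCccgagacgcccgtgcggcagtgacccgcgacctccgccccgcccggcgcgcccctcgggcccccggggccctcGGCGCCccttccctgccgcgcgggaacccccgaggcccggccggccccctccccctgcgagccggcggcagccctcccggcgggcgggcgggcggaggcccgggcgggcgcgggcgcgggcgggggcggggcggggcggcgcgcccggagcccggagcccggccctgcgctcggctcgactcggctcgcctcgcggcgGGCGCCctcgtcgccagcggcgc
SMAD6: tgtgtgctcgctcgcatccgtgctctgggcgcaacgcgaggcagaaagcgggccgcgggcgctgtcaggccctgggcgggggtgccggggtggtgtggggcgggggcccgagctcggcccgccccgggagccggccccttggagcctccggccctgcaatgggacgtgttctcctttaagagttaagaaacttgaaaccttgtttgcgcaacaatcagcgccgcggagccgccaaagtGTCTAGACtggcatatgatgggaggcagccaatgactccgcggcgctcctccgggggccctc
BMP6: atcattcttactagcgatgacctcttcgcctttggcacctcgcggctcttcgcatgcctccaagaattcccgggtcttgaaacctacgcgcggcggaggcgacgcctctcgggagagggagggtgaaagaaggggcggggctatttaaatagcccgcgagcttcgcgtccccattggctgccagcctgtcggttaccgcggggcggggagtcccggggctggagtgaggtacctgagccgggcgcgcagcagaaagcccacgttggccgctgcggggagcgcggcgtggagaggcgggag
LTBP1: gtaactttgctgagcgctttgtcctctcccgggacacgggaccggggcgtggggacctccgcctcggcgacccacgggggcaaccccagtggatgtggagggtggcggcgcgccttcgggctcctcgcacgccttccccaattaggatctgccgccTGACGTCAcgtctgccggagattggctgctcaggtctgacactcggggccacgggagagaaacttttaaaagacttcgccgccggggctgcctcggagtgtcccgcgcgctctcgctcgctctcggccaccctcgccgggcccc
INHBA: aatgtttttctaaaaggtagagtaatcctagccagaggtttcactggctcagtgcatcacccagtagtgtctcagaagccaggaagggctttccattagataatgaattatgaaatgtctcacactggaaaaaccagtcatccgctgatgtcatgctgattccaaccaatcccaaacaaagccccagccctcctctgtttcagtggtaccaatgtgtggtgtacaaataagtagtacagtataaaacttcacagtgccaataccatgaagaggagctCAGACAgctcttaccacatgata

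The TGFB2 window lies at chr1:218345086-218345385 on the plus strand and held 1 CAGACA, 53 bases before the start. INHBB at chr2:120345886-120346185 (plus strand) had a GC content of 88.7% and 3 GGCGCC matches, while INHBA at chr7:41703041-41703340 (minus strand) had a GC content of 43.3% and 1 CAGACA. The SMAD6 window at chr15:66701986-66702285 (plus strand) held the only GTCTAGAC among the members, 12 bases before the start. LTBP1 at chr2:32946703-32947002 (plus strand) held 1 TGACGTCA, and BMP6 at chr6:7725849-7726148 (plus strand) held none of the 5 motifs. Across the 44 members, GTCTAGAC occurred in 2.27% of windows against 0.202% of all 35116 promoters in the table. CAGACA occurred in 15.9% against 16.9%, GGCGCC in 34.1% against 19.2%, TGACTCA in 2.27% against 4.95%, and TGACGTCA in 4.55% against 1.85%. The median GC content was 69.5% for members and 58.7% for all promoters. A match in these letters is a description of the window and not a binding site.

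Every value given here is a deposited log2 signal, quantile-normalized between libraries, so that a difference of 1 is a doubling of the normalized signal. The linear unit is not stated and the depth of each library is unknown. Whether signals were scaled to gene length is not given in the sources used here, so the levels of named genes were mainly compared between groups. Where genes are set beside each other, as in marker sums, ranks of mean signal or signals called low, gene length may count. Each library had values for 20333 to 21041 genes and a median signal of 0.62. CNTNAP4 itself had a value in a single library, VC replicate 3 (-7.18), so its loss could not be checked in these data. The study reported the deletion in its KO clones by qRT-PCR, western blot and an endonuclease assay. Among markers of the osteoblast and mesenchymal lineage, 8 of 11 had values in all 6 libraries, IBSP had none, BGLAP had values only in KO replicates 1 and 2, and SP7 had values in 4 libraries. Their summed linear signal ranged from 1399 to 1576 in VC and from 1691 to 2108 in KO. VIM, which was not called (adjusted p = 0.0667), made up nearly all of this sum. Within the list SPP1, ALPL, SPARC and COL1A1 rose, while TWIST1 (-0.68; adjusted p = 0.0156) and COL1A2 (-0.81; adjusted p = 0.0161) fell. The 4 epithelial markers summed to 3.28 to 3.64 in VC and 1.94 to 2.40 in KO, the 4 endothelial markers to 0.0551 to 0.0883 and 0.0561 to 0.109, and the 5 blood markers to 21.7 to 23.0 and 52.3 to 88.1. CD68 made up nearly all of the blood sum and was higher in KO (log2 fold change 1.66), while PTPRC was low. The mesenchymal, epithelial and blood sums did not overlap between groups, whereas the endothelial sums did, and the part of these markers in the results below was not tested.

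Of the 49 tested members, 21 (42.9%) differed between KO and VC at an adjusted p under 0.05, 11 of them higher and 10 lower in KO. The same limma test, adjusted by the Benjamini-Hochberg method over all 19306 tested genes, called 32.9% of all genes, 13.1% higher and 19.8% lower. Ranked by mean signal, a rank in which gene length may also count, 34 members lay in the upper 50%, where 17 of them (50%) were called against a background of 39.2%, and 4 of the other 15 were called. The 2 groups did not overlap for 32 of the 49 members (65.3%), against 59.3% of the 17698 genes with 6 values. The median log2 fold change was -0.05 for members and -0.13 for all tested genes. Centring the libraries on the median of genes with 6 values, an alternative chosen after seeing the data, moved the member median to 0.033 and the split of all genes from 2526 higher and 3828 lower to 3005 and 3233. The member count fell to 9, 11, 7 and 12 without VC replicates 1, 2 and 3 and KO replicate 3. It was 28 without KO replicate 1 and 17 without KO replicate 2. Over all genes, the same fits in the same order called 1403, 2450, 1223, 2018, 8669 and 4393, against 6354 with all 6 libraries. These fits tested 18458 to 18748 genes, so the member count moved with that of the whole table.

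**Figure D1:**
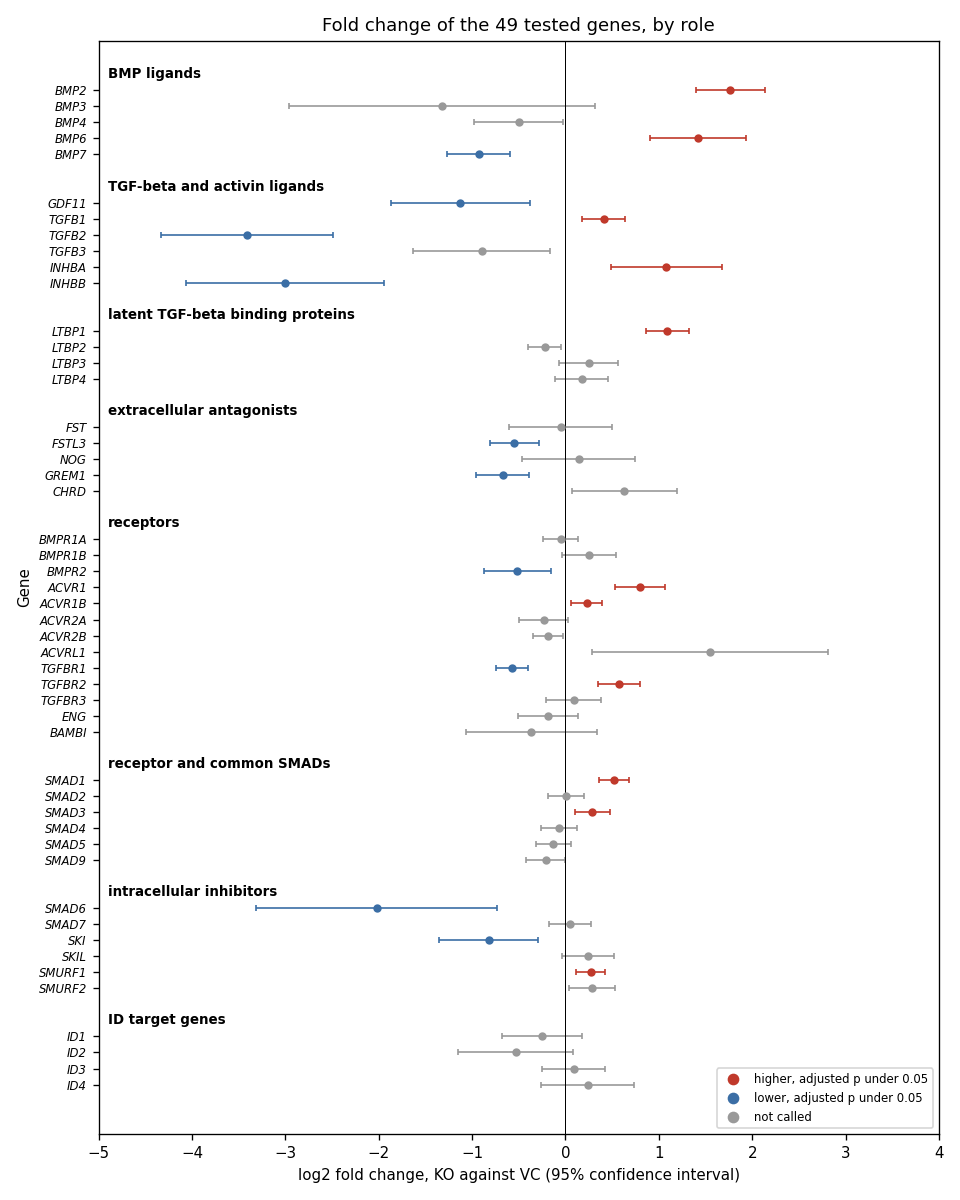
Log2 fold change of KO against VC (x axis) for the 49 tested genes (y axis, grouped by role), with 95% confidence intervals not adjusted for the number of genes. Red points are higher and blue points lower at an adjusted p under 0.05, and grey points are not called. TGFB2 (-3.41), INHBB (-3.00) and SMAD6 (-2.02) lie farthest to the left among called genes and BMP2 (1.77) and BMP6 (1.42) farthest to the right.

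Among the BMP ligands, BMP2 and BMP6 rose and BMP7 fell. BMP2, a strong inducer of bone formation, had signals of 0.82, 0.65 and 0.86 in VC and 2.34, 2.82 and 2.46 in KO. All 3 KO libraries lay above all 3 VC libraries, a log2 fold change of 1.77 ± 0.15 (SE; 3.40-fold; adjusted p = 0.00632). BMP6, another osteogenic BMP, also involved in iron control through hepcidin, had 1.65, 1.58 and 1.61 in VC and 2.62, 3.40 and 3.09 in KO. Its groups did not overlap, and the change was 1.42 ± 0.20 (2.68-fold; adjusted p = 0.0122), losing its call without VC replicate 3 (adjusted p = 0.0502). BMP7, which is essential for kidney and eye development, had 4.36, 4.11 and 4.31 in VC and 3.48, 3.10 and 3.42 in KO. Every KO library was below every VC library, and the change came to -0.93 ± 0.13 (adjusted p = 0.012). This call was lost without VC replicate 3 (0.0515). BMP4, closely related to BMP2, had 0.57, 0.30 and 0.36 in VC and 0.22, -0.44 and -0.06 in KO. All KO values were lower, but the difference of -0.50 ± 0.19 did not pass the test (adjusted p = 0.0938), although it did without KO replicate 1 (adjusted p = 0.0302). BMP3, which opposes osteogenic BMPs, was near the bottom of the signal range at -4.98 to -4.58 in VC and -7.40 to -4.84 in KO, and its groups overlapped.

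The TGF-beta and activin ligands held the members with the largest falls. TGFB2, one of the 3 TGF-beta isoforms, had -0.36 in each VC library and -3.06, -4.52 and -3.73 in KO. VC libraries differed by less than the rounding of these values, while KO replicates spread widely and all lay far below them. The log2 fold change was -3.41 ± 0.37 (10.6-fold lower; adjusted p = 0.00869). INHBB, which encodes the beta B subunit of activin B, had 1.09, 0.76 and 0.80 in VC and -1.37, -2.99 and -1.99 in KO. INHBB and TGFB2 lay in the lower 50% of mean signal, at percentiles 37.7 and 28.9 of tested genes, and their counting error was not computed. The INHBB groups did not overlap either, with a change of -3.00 ± 0.42 (8.01-fold lower; adjusted p = 0.0115).

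In contrast, TGFB1 and INHBA rose. TGFB1, the most widely expressed TGF-beta isoform, had 5.54, 5.32 and 5.56 in VC and 5.89, 5.86 and 5.91 in KO. The KO libraries were tightly grouped above all VC libraries, a rise of 0.41 ± 0.09 (1.33-fold; adjusted p = 0.0275). INHBA, which encodes the beta A subunit of activin A, had 0.25, 0.35 and 0.25 in VC and 1.52, 1.72 and 0.85 in KO. KO replicate 3 was the lowest of its group but still above every VC library, and the change was 1.08 ± 0.24 (2.11-fold; adjusted p = 0.0267). TGFB1 lost its call in each leave-one-out fit other than that without KO replicate 1 (adjusted p = 0.0516 to 0.0821), and INHBA without VC replicates 1, 2 or 3 or KO replicate 2 (0.0518 to 0.0816). Without variance moderation INHBA was not called (0.0568).

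GDF11, a relative of myostatin that signals through SMAD2 and SMAD3, had 1.86, 1.65 and 1.74 in VC and 1.10, -0.01 and 0.79 in KO. The groups did not overlap and KO replicate 2 was well below the other KO libraries. Its log2 fold change was -1.13 ± 0.30 (adjusted p = 0.0391), and it lost its call without VC replicates 1, 2 or 3 or KO replicate 3 (0.0843 to 0.108) and without variance moderation (0.0773). TGFB3 had -1.43, -1.67 and -0.99 in VC and -1.74, -2.53 and -2.53 in KO, and its difference of -0.90 ± 0.29 was not called (adjusted p = 0.0649; 0.0181 without KO replicate 1).

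Within single libraries, the balance of paired ligands shifted by more than their spread, as a description of pairs picked after their values were seen. INHBA minus INHBB went from a mean of -0.60 ± 0.23 (SD, n = 3) in VC to 3.48 ± 1.06 in KO. TGFB1 minus TGFB2 went from 5.83 ± 0.14 to 9.66 ± 0.71, and BMP2 minus BMP7 from -3.49 ± 0.05 to -0.79 ± 0.45. These are changes in a within-library difference and not a comparison of the levels of the genes.

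**Figure D2:**
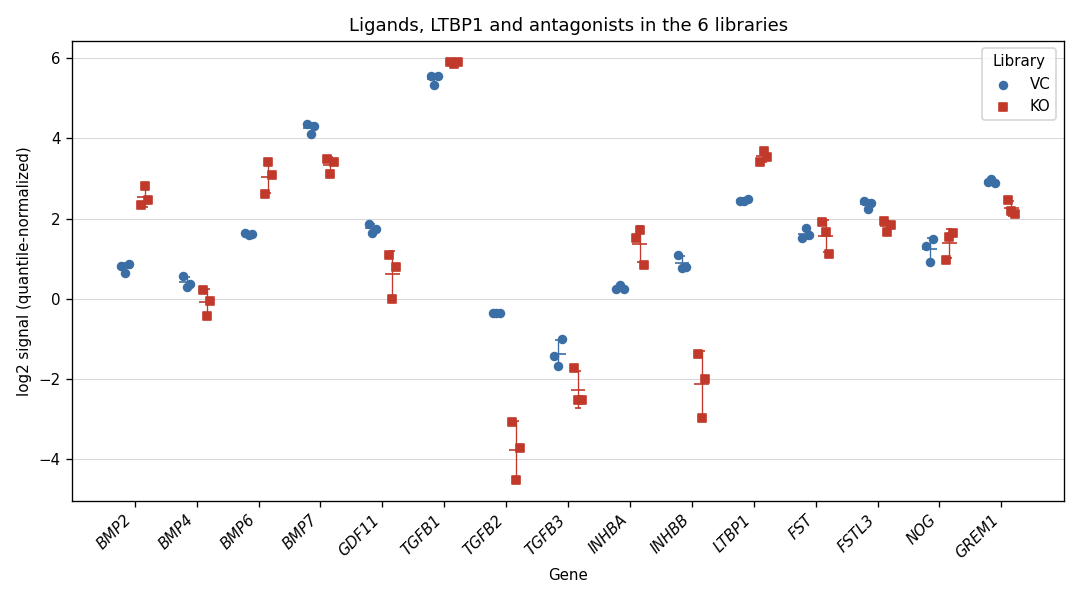
Log2 signal (y axis, quantile-normalized) of ligands, LTBP1 and extracellular antagonists (x axis) in each of the 3 VC (blue circles) and 3 KO (red squares) libraries. Short horizontal lines with bars are the group mean and SD. TGFB2 and INHBB show KO libraries far below VC, BMP2, BMP6 and LTBP1 show them above, and FST and NOG show overlapping groups.

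Among the latent TGF-beta binding proteins, which tether latent TGF-beta to the extracellular matrix, LTBP1 rose and the other 3 were not called. LTBP1 had 2.44, 2.45 and 2.48 in VC and 3.41, 3.69 and 3.55 in KO. The groups were far apart relative to their spread, with a change of 1.09 ± 0.09 (2.13-fold; adjusted p = 0.00656). LTBP2 had 3.35, 3.22 and 3.33 in VC and 3.11, 3.08 and 3.04 in KO, a difference of -0.22 ± 0.07 that did not pass the test (adjusted p = 0.061). LTBP3 and LTBP4 had differences of 0.25 ± 0.12 and 0.17 ± 0.11 (adjusted p = 0.173 and 0.272).

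Of the 5 extracellular antagonists, GREM1 and FSTL3 fell and NOG, FST and CHRD were not called. GREM1 (gremlin, which binds BMP2, BMP4 and BMP7) had 2.92, 2.98 and 2.89 in VC and 2.47, 2.19 and 2.11 in KO. All KO libraries were lower, by 0.67 on the log2 scale (log2 fold change -0.67 ± 0.11; adjusted p = 0.0153). FSTL3, a follistatin-like protein that binds activins and myostatin, had 2.43, 2.25 and 2.39 in VC and 1.94, 1.66 and 1.83 in KO. It was lower in every KO library (-0.55 ± 0.10; adjusted p = 0.0196). Both calls depended on the libraries included. GREM1 was not called without VC replicates 1, 2 or 3 (adjusted p = 0.0513 to 0.0578), nor FSTL3 without VC replicates 1 or 3 or KO replicate 3 (0.0619 to 0.0727).

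NOG (noggin, a BMP antagonist) had 1.31, 0.92 and 1.48 in VC and 0.96, 1.55 and 1.64 in KO. The groups overlapped and the difference of 0.14 had a 95% interval of -0.46 to 0.75. FST (follistatin, which sequesters activins) had 1.5, 1.76 and 1.60 in VC and 1.91, 1.67 and 1.13 in KO. Its KO libraries fell on both sides of the VC libraries (difference -0.05, interval -0.60 to 0.50, turning to 0.033 with the added centring). CHRD (chordin) was a low-signal gene with a difference of 0.63 ± 0.22 that was not called (adjusted p = 0.0803).

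Of the 13 receptors and co-receptors, ACVR1, ACVR1B and TGFBR2 rose, BMPR2 and TGFBR1 fell, and 8 were not called. ACVR1 (ALK2, a type I receptor for BMPs) had 2.24, 2.30 and 2.28 in VC and 2.90, 3.25 and 3.07 in KO. The groups did not overlap and the change was 0.80 ± 0.11 (1.74-fold; adjusted p = 0.0106). BMPR2, the dedicated type II BMP receptor, had 2.75, 2.80 and 2.76 in VC and 2.48, 1.98 and 2.32 in KO. All KO libraries were lower (-0.51 ± 0.14; adjusted p = 0.0431), but the call was lost with the added centring (adjusted p = 0.0524) and without VC replicates 1, 2 or 3 or KO replicate 3 (0.0947 to 0.111). BMPR2 was not called without variance moderation either (0.0728).

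The receptor pair for TGF-beta changed in opposite directions. TGFBR1, the type I receptor, had 2.95, 3.06 and 2.95 in VC and 2.39, 2.39 and 2.45 in KO. Both groups were tight and well separated, and the change was -0.57 ± 0.07 (adjusted p = 0.00963). TGFBR2, the type II receptor, had 5.06, 5.07 and 5.11 in VC and 5.57, 5.80 and 5.58 in KO. It was higher in every KO library (0.57 ± 0.09; 1.48-fold; adjusted p = 0.0137) and lost its call without VC replicates 1 or 3 (0.0566 and 0.0556). TGFBR2 minus TGFBR1 within a library went from 2.09 ± 0.08 (SD, n = 3) in VC to 3.24 ± 0.15 in KO, again a pair picked after its values were seen.

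ACVR1B (ALK4, the activin type I receptor) had 2.37, 2.31 and 2.36 in VC and 2.57, 2.62 and 2.53 in KO, a small rise of 0.23 ± 0.07 just under the threshold (adjusted p = 0.0483). It was called in a single leave-one-out fit, that without KO replicate 1, and had adjusted p-values of 0.0869 to 0.135 without VC replicates 1, 2 or 3 or KO replicates 2 or 3. The other type I and type II receptors were not called. BMPR1A, a type I BMP receptor, had a difference of -0.05 (interval -0.24 to 0.13, turning to 0.032 with the added centring), BMPR1B 0.25, ACVR2A -0.23 and ACVR2B -0.19. ACVRL1, an endothelial type I receptor, was close to the floor of the table at -7.93 to -6.95 in VC and -6.42 to -4.82 in KO, and its difference of 1.55 ± 0.50 was not called (adjusted p = 0.0643). Of the co-receptors, TGFBR3 (betaglycan) differed by 0.09 and ENG (endoglin) by -0.19, neither called. ACVR2A and ACVRL1 passed the threshold without KO replicate 1 (adjusted p = 0.046 and 0.041).

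BAMBI, a pseudoreceptor without kinase activity that dampens TGF-beta and BMP signals, had 0.86, 0.83 and 1.02 in VC and 1.02, -0.04 and 0.64 in KO. The groups overlapped, since KO replicate 1 matched the highest VC library, and the difference of -0.36 ± 0.28 was not called (adjusted p = 0.348).

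Among the SMADs that carry the signal, SMAD1 and SMAD3 rose and the other 4 were not called. SMAD1, of the BMP branch, had 2.47, 2.46 and 2.43 in VC and 2.95, 3.02 and 2.94 in KO. Replicates agreed closely in both groups, which did not overlap, and the change was 0.52 ± 0.06 (1.43-fold; adjusted p = 0.00993). SMAD3, of the TGF-beta and activin branch, had 4.28, 4.26 and 4.33 in VC and 4.65, 4.60 and 4.48 in KO. The rise of 0.29 ± 0.08 (1.22-fold; adjusted p = 0.0389) was lost in each leave-one-out fit other than that without KO replicate 1 (0.0663 to 0.118).

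SMAD2, the partner of SMAD3, had 1.17, 1.17 and 1.10 in VC and 1.23, 1.17 and 1.06 in KO. Its groups overlapped fully, with a difference of 0.01 and an interval of -0.18 to 0.20, and the sign turned with the libraries included. SMAD4, the common partner, had 2.98, 3.04 and 2.98 in VC and 3.02, 2.93 and 2.84 in KO. Its difference of -0.07 (interval -0.26 to 0.12) also overlapped and turned to 0.016 with the added centring. SMAD5, like SMAD1 a BMP-branch SMAD, had 3.37, 3.45 and 3.34 in VC and 3.33, 3.21 and 3.23 in KO. The KO libraries were all slightly lower, but the difference of -0.13 was not called (interval -0.32 to 0.06; adjusted p = 0.222). SMAD9, the third BMP-branch SMAD, had a difference of -0.21 ± 0.08 (adjusted p = 0.1; 0.031 without KO replicate 1).

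Of the 6 intracellular inhibitors, SMAD6 and SKI fell, SMURF1 rose, and SMAD7, SKIL and SMURF2 were not called. SMAD6, the inhibitory SMAD with a preference for BMP signals, had 1.19, 1.03 and 1.10 in VC and -0.03, -2.03 and -0.68 in KO. Every KO library was lower, KO replicate 2 by far the most. The log2 fold change was -2.02 ± 0.51 (4.06-fold lower; adjusted p = 0.0363), and the call was lost without VC replicates 1, 2 or 3 or KO replicate 3 (0.0826 to 0.099) and without variance moderation (0.0749). SKI, a nuclear co-repressor of SMADs, had 3.93, 3.82 and 3.96 in VC and 3.36, 2.62 and 3.26 in KO. The groups did not overlap (-0.82 ± 0.21; adjusted p = 0.0371), and leaving out any of the same 4 libraries ended the call (0.0739 to 0.105), as did a fit without variance moderation (0.0722).

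SMAD7, the general inhibitory SMAD, had 2.68, 2.50 and 2.60 in VC and 2.58, 2.75 and 2.60 in KO. Unlike SMAD6 its groups overlapped, with a difference of 0.05 (interval -0.17 to 0.27). SMAD7 minus SMAD6 within a library was 1.48 ± 0.02 (SD, n = 3) in VC and 3.55 ± 1.11 in KO. This pair too was picked after its values were seen. As SMAD7 hardly changed, its shift mostly restates the fall of SMAD6. SMURF1, a ubiquitin ligase for SMAD1 and SMAD5, had 3.05, 3.00 and 3.02 in VC and 3.28, 3.28 and 3.32 in KO, a rise of 0.27 ± 0.06 (1.21-fold; adjusted p = 0.0292). Although its groups were tight and separate, it too lost its call without VC replicates 1, 2 or 3 or KO replicate 3 (0.0784 to 0.103). SMURF2, the related ligase, and SKIL, the relative of SKI, had differences of 0.28 ± 0.10 and 0.24 ± 0.11 (adjusted p = 0.0751 and 0.15), and passed the threshold without KO replicate 1 (0.0143 and 0.0459).

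None of the 4 ID genes, helix-loop-helix proteins that block differentiation factors and respond directly to BMPs, was called by limma, and 0 had an unadjusted p under 0.05. Over all 19306 tested genes, the same test called 32.9%, and 9241 had an unadjusted p under 0.05. ID1 had 6.39, 6.12 and 6.38 in VC and 6.33, 5.77 and 6.04 in KO, with overlapping groups (difference -0.25, interval -0.68 to 0.18). ID2 had 1.53, 1.41 and 1.47 in VC and 1.33, 0.41 and 1.07 in KO. Here all KO libraries were lower, with KO replicate 2 lowest (difference -0.53, interval -1.15 to 0.08, adjusted p = 0.145). ID3 had 7.64, 7.38 and 7.65 in VC and 7.85, 7.47 and 7.61 in KO (difference 0.09, interval -0.25 to 0.43). ID4 had -0.81, -0.97 and -0.82 in VC and -0.22, -0.92 and -0.74 in KO (difference 0.24, interval -0.26 to 0.74). The groups of ID3 and ID4 overlapped, and these intervals leave room for a change in either direction.

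**Figure D3:**
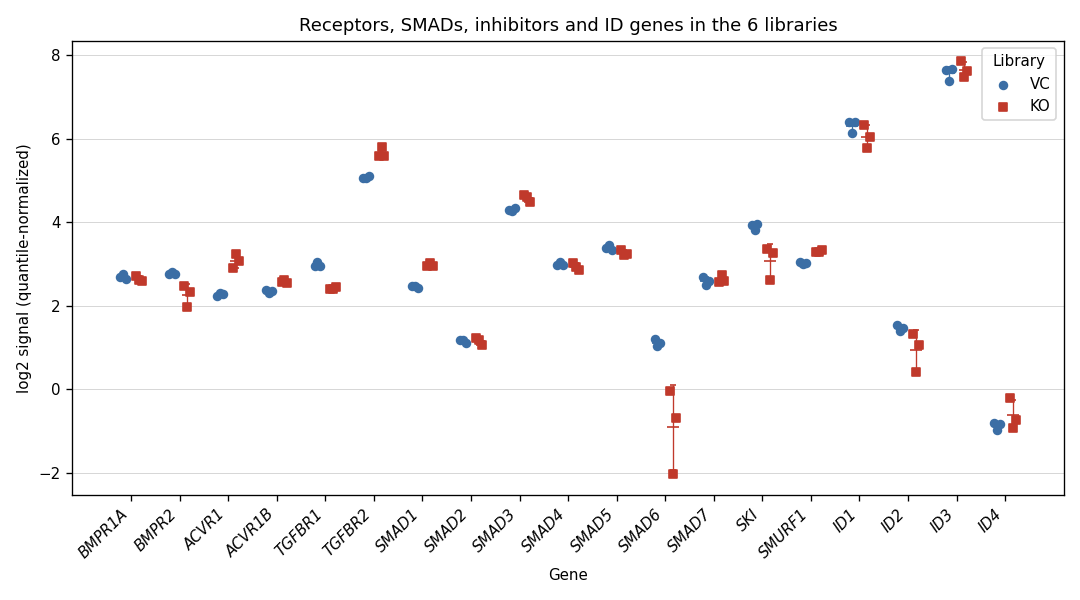
Log2 signal (y axis, quantile-normalized) of receptors, SMADs, inhibitors and ID genes (x axis) in each of the 3 VC (blue circles) and 3 KO (red squares) libraries, with the group mean and SD as lines. ACVR1, TGFBR2 and SMAD1 show KO libraries above VC, TGFBR1, SMAD6 and SKI show them below, and SMAD2, SMAD7 and ID3 show overlapping groups.

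The 3 KO libraries were not equally far from VC. Among the 21 called members, KO replicate 2 was farthest from the VC mean in 17 and KO replicate 1 nearest in 15. The same order held for most genes called across the table, where KO replicate 2 was farthest in 75.4% and KO replicate 1 nearest in 74.3%. TGFB2, INHBB, SMAD6, GDF11 and SKI all had their lowest signal in KO replicate 2. Replicate 3 of KO was farthest in 3 members.

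**Figure D4:**
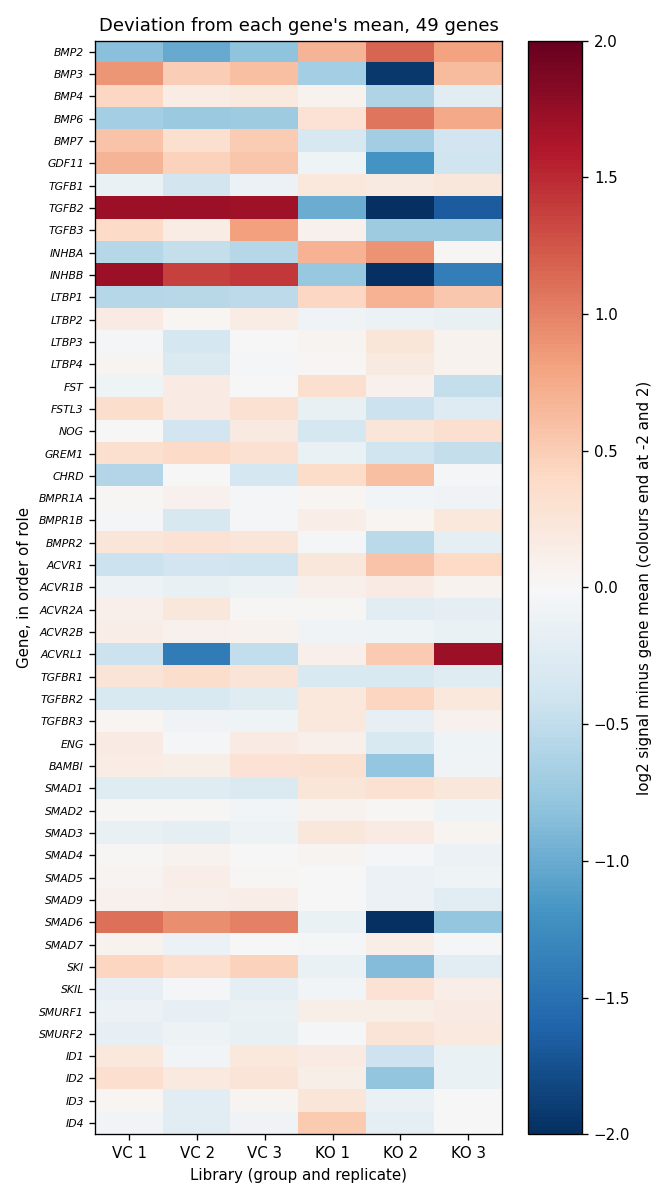
Deviation of each library (x axis) from the mean of the 6 libraries for each of the 49 tested genes (y axis, in order of role), in log2 units, with red above and blue below the gene mean and the colour scale ending at -2 and 2. The 3 VC columns resemble each other, and KO replicate 2 holds the deepest blues, for TGFB2, INHBB and SMAD6.

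In 7 members the call held in each of the 6 fits that left out 1 library, namely BMP2, TGFB2, INHBB, LTBP1, ACVR1, TGFBR1 and SMAD1. The weakest of these was SMAD1 without VC replicate 3, at an adjusted p of 0.0499. The other 14 called members lost the call in at least 1 fit, and 7 members outside the called set gained one without KO replicate 1. That fit called 8669 of 18458 genes across the table, against 6354 of 19306 with all 6 libraries. The share of all genes that kept their call in all 6 fits is not given here, so the 7 members cannot be set against it. No called member changed direction in any of these fits.

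**Figure D5:**
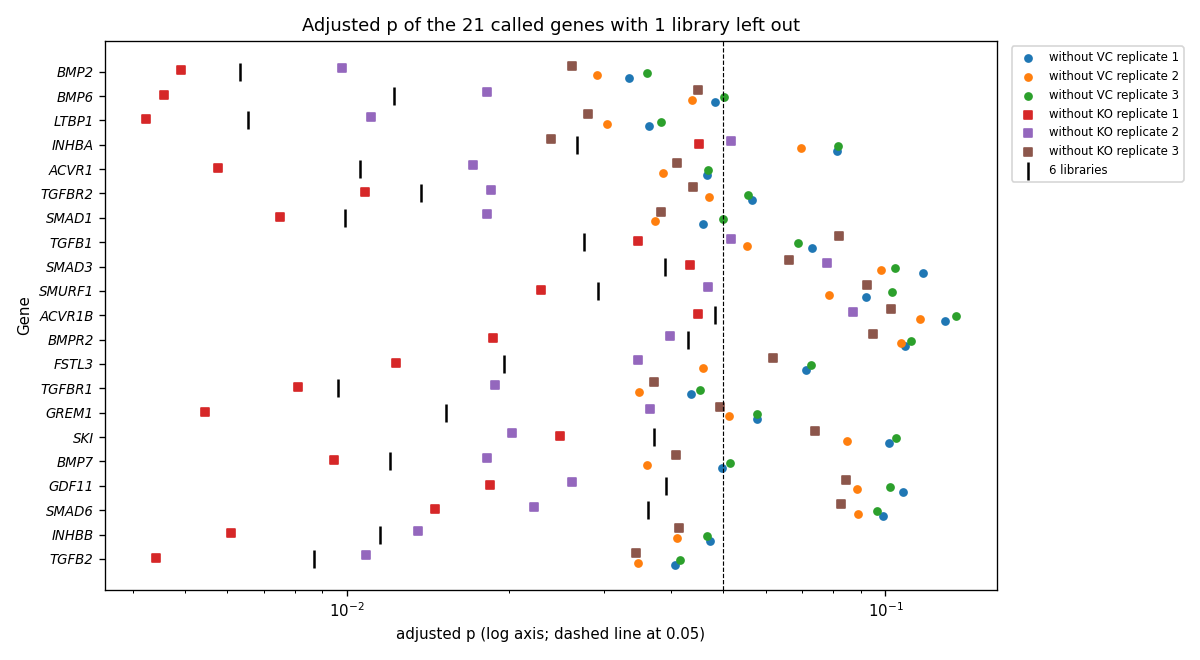
Adjusted p (x axis, log scale) of the 21 called genes (y axis) with all 6 libraries (black bars) and with 1 library left out (coloured points, VC as circles and KO as squares), with the threshold of 0.05 as a dashed line. For most genes, leaving out KO replicate 1 lowered the adjusted p and leaving out a VC library or KO replicate 3 raised it.

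Beyond the 50 members, 99 other genes of the same pathways were listed by function, and 80 of them could be tested. Of these 33 (41.2%) were called, 17 higher and 16 lower, against the background of 32.9% for all genes. Among 13 further ligands, GDF15, a stress-responsive cytokine, rose by 4.29 ± 0.34 on the log2 scale (adjusted p = 0.00597). INHBE, the activin beta E subunit, rose by 3.73 ± 0.32 (adjusted p = 0.00675), while GDF10, GDF9, BMP8B and GDF6 fell. These 2 rises were larger than that of any member.

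Of 8 further antagonists, FSTL1 (-0.59 ± 0.10; adjusted p = 0.015) and TWSG1 (-0.56 ± 0.08; adjusted p = 0.013) fell and 6 were not called. Of 11 genes for latency and activation, 3 rose and 8 were not called. Among those that rose was ITGAV, the integrin alpha V subunit that takes part in freeing TGF-beta from its latent complex (0.49 ± 0.08; adjusted p = 0.0161). NRROS rose by 0.33 and BMP1, a protease of matrix proteins, by 0.25. Of 4 further receptors and co-receptors, NRP1 rose (0.40 ± 0.06; adjusted p = 0.0132).

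Of 21 further intracellular regulators, 3 rose and 8 fell. TGIF1, a SMAD co-repressor, rose by 1.40 ± 0.18 (adjusted p = 0.0105). TOB1, an antiproliferative protein that restrains BMP-branch SMADs, fell by 0.64 ± 0.15 (adjusted p = 0.0296), and CREBBP, a SMAD co-activator, by 0.54 ± 0.13 (adjusted p = 0.0338). The other calls were smaller, with log2 fold changes from -0.40 to 0.49.

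Of 15 TGF-beta target genes, 7 rose and 2 fell. ANGPTL4, a lipoprotein lipase inhibitor, rose by 2.88 ± 0.67 (adjusted p = 0.0298), and BHLHE40, a transcriptional repressor, by 2.79 ± 0.32 (adjusted p = 0.00899). TAGLN, a smooth muscle actin-binding protein, fell by 2.20 ± 0.13 (adjusted p = 0.00478). Many of these genes answer to other pathways too, and the list does not separate them. Of 8 BMP targets other than the ID genes, HEY1 rose (1.29 ± 0.15; adjusted p = 0.00898) and 7 were not called.

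Leaving out libraries moved these calls as well, and the count of 33 was 10, 14, 8 and 11 without VC replicates 1, 2 and 3 and KO replicate 3, and 21 without KO replicate 2. GDF15, INHBE, TGIF1, BHLHE40, TAGLN and HEY1 kept their calls in all 6 fits. ANGPTL4, TOB1, CREBBP, NRROS and BMP1 lost theirs in the 5 fits other than that without KO replicate 1 (adjusted p = 0.055 to 0.122). GDF10 and FSTL1 lost theirs without VC replicates 1, 2 or 3 or KO replicate 3 (0.05005 to 0.124), NRP1 without VC replicates 1 or 3 or KO replicate 3, ITGAV without VC replicates 1 or 3, and TWSG1 without VC replicate 3 (0.0508 to 0.0645). Without variance moderation GDF10, NRROS, TOB1, CREBBP and ANGPTL4 were not called (0.051 to 0.0923).

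On some chromosomes that carry members, the median log2 fold change differed from that over all chromosomes. The median log2 fold change of genes in the upper 50% of mean signal was -0.09 over all chromosomes. On chromosome 20, which carries BMP2, BMP7 and ID1, it was -0.25, and BMP2 rose against this median while BMP7 lay below it. On chromosome 14, which carries BMP4, TGFB3 and LTBP2, it was -0.35. There, 46% of tested genes were called lower, against 20.4% over all chromosomes. The 3 members on chromosome 14 had differences of -0.50, -0.90 and -0.22, and none was called. How far such shifts account for a member's value was not tested. Whether the authors' counting used strand is not given in the sources used here, so reads of genes with an antisense partner may be shared.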

How the data were processed

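RNA of 143B cells was extracted with TRIzol and sequenced in 3 VC and 3 KO libraries, mapped to group and replicate from their labels. A stranded mRNA kit is given by the labels, whereas the study describes total RNA-seq on a NextSeq. Software named in the study included Partek and CLC, and the submitters' processing notes name CASAVA, STAR, Partek and GRCh38.p13, without versions. The authors deposited log2 signals, quantile-normalized between libraries, without a stated linear unit, from -10.87 to 12.04. Empty cells mark genes without a value. Read counts were not used here, so the depth is unknown and no interval for counting error was computed.

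limma 3.58.1 under R 4.3.3 (linear model, empirical Bayes moderation without trend) was run on the signals as deposited, for 19306 genes that had 2 or more values per group. Benjamini-Hochberg adjustment of the two-sided p-values covered all of them, and 6354 passed 0.05. A single-gene exact permutation test of 3 against 3 cannot go below 0.1 and was not used. Members and other lists were chosen with earlier results of these data known. Named are all called members, fixed examples of each role, and up to 3 called genes of each group of the other pathway list with the largest change; GDF9, BMP8B and GDF6 were added after their values were seen. Not every gene of the lists is reported here. Promoter windows and chromosomes were matched by symbol to RefSeq tables (GRCh38.p14, pandas 2.3.3). The fit was tested on simulated data. Alternatives were the genes tested, a filter on low signals, centring, 1 added to the linear signal, other variance moderation, a replicate block and each library left out.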

Additional observations from a re-analysis of the deposited data

How the results depend on the processing

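With the replicate number as a block, 1740 genes of the table were called (661 higher, 1079 lower), 9 members (4 higher, 5 lower) and 9 other pathway genes (7 higher, 2 lower). The 9 members are BMP2, BMP6, BMP7, TGFB2, INHBB, LTBP1, FSTL3, ACVR1 and TGFBR1. No pairing by number was seen in the deviations from group means. Those of same-numbered libraries correlated at 0.023, 0.0051 and -0.0074, and not every library correlated best with its own number. Such correlations cannot show whether same-numbered libraries were prepared together. Without variance moderation 2442 genes were called lower, GDF11, INHBA, BMPR2, SMAD6 and SKI lost their calls, and LTBP2 and ACVR2B gained one. The added centring gave 20 members and 6238 genes of the table, while some other settings raised the counts. With 1 added to the linear signal, 25 members and 7773 genes of the table were called. Variance moderation with a trend and a robust setting gave 24 members and 7923 genes. Leaving out each library in turn gave 1223 to 8669 called genes (654 to 2940 higher, 569 to 5729 lower), 7 to 28 members (4 to 14 higher, 3 to 14 lower) and 8 to 43 other pathway genes (7 to 17 higher, 1 to 26 lower).

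The sign turned for some members that were never called. With the added centring FST was 0.033, BMPR1A 0.032 and SMAD4 0.016. Without VC replicate 2, FST was 0.018, NOG -0.013, SMAD7 -0.00040 and ID3 -0.0016. Left out in turn, libraries gave -0.22 to 0.17 for FST, -0.013 to 0.36 for NOG, -0.029 to 0.052 for SMAD2 and -0.0057 to 0.091 for SMAD7. FST was 0.17 without KO replicate 3, and ID3 was -0.015 without KO replicate 1. SMAD2 was -0.018 without VC replicate 3, -0.029 without KO replicate 1 and -0.0035 without KO replicate 2, where SMAD7 was -0.0057. The cause was not tested. The member median was 0.027 in the upper 50% of mean signal and 0.017 without KO replicate 3. Centring on each library's own median changed no call, since the medians were already equal. The depth of each library is unknown, so how far counting error limits low signals cannot be given.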
